A study of Mus musculus with 4 samples.

Results

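The nuclei described here are inhibitory neurons from samples of mouse hippocampus that carried the transcript of somatostatin (Sst). They were chosen by UMIs, the counted RNA molecules of a nucleus. A member had at least 500 detected genes, at least 3 UMIs of Gad1 and Gad2 together, which encode the enzymes that make GABA, at most 1 UMI of Slc17a7, the vesicular glutamate transporter of excitatory neurons, and at least 2 UMIs of Sst. It had 0 UMIs of Pvalb and 0 of Vip, which mark other inhibitory classes. The rule does not test for a brain region, so neurons from tissue next to the hippocampus are not separated. The rule was met by 1656 of 59750 barcodes with at least 500 genes, out of 60288 in all. The study measured nuclear RNA of mouse hippocampus in 4 libraries, 1 per genotype. The labels give these as wild type (WT, 274 members), total or global knockout of monoacylglycerol lipase (tKO, 727), astrocyte-specific knockout (aKO, 308) and neuron-specific knockout (nKO, 347). Values of the libraries are given in the order WT, tKO, aKO, nKO throughout. Monoacylglycerol lipase (MAGL, gene Mgll) breaks down the endocannabinoid 2-arachidonoylglycerol, and the series title concerns endocannabinoid excess in neurons and cognition. The sources used here do not give the deleted part of Mgll, the drivers of the cell-specific knockouts, the strain, the age or the number of animals per library.

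Somatostatin neurons are inhibitory interneurons that mostly contact the dendrites of pyramidal cells. In the hippocampus they include the oriens-lacunosum moleculare cells of CA1, which inhibit the distal dendrites where entorhinal input arrives, the hilar cells of the dentate gyrus, and cells that project beyond their own layer. Their excitatory inputs are weak at first and strengthen during a train of spikes, a property for which the adhesion protein Elfn1 and the glutamate receptors it recruits are known. The peptide somatostatin is stored in dense-core vesicles and inhibits its targets through G-protein-coupled receptors. Endocannabinoids act mainly on the CB1 receptor (Cnr1), which in hippocampal interneurons is best known from cholecystokinin cells.

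The gene that defines these nuclei has a promoter with a well-known cAMP response element, the palindrome TGACGTCA, which the transcription factor CREB binds. The 120 bases before the annotated gene start are shown for Sst, for Cort, its closest relative among the peptides described below, and for Fos, an immediate early gene whose level differed between the libraries. Capitals mark the full motif TGACGTCA or, outside it, the shorter motif TGACG or its other strand CGTCA.
Sst: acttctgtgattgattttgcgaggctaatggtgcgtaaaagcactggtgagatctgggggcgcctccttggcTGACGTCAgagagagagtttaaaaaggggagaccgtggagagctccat
Cort: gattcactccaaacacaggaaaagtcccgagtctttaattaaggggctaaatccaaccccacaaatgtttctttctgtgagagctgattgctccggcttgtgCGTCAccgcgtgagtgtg
Fos: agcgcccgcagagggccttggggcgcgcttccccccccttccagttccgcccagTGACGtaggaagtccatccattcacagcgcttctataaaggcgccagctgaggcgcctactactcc
The sequences are from RefSeq, build GRCm38.p6, and read 5′ to 3′ on the strand of the gene. They lie at chr16:23890845-23890964 (minus strand) for Sst, chr4:149126764-149126883 (minus strand) for Cort and chr12:85473770-85473889 (plus strand) for Fos. The Sst window holds 1 full motif, whose first base is at position -48 from the gene start. The Cort window holds the shorter motif at -18 and the Fos window at -66, and neither holds the full one. The full motif is in 407 of 32851 promoter windows of this length (1.239%), and the shorter motif on either strand in 3829 (11.66%). Of 10 other windows searched, those of Crhbp (-64), Nr4a2 (-111) and Layn (-58) hold the shorter motif, and those of Npy, Npas4, Nr4a3, Gabrg1, Gabra2, Elfn1 and Lypd6 hold neither.

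The libraries differed in depth and make-up. Median UMIs per member were 10640.5, 7341, 7880.5 and 10137, and members summed to 3038119, 5912377, 2700349 and 3763351 UMIs. Scrublet called 29.0% of the tKO members as doublets, against 3.65% in WT, 2.60% in aKO and 0.865% in nKO. The rate it was told to expect followed the number of barcodes, at 7.443%, 24.74%, 8.531% and 7.082%. Called doublets were kept in the values below unless stated. By their sex genes the WT, aKO and nKO libraries held nuclei of both sexes and the tKO library held 691 male and 0 female members. UMIs of both Xist and a Y-chromosome gene were held by 18, 0, 17 and 15 members. Doublets of mixed sex cannot be seen in tKO, which had no female members. Whether doublets or free RNA gave these nuclei was not tested. No barcode of a member occurred as a member in another library. Summed over a fixed list, oligodendrocyte markers reached 123, 208, 27.8 and 40.7 CPM (UMIs scaled to the same total of the members in each library) and choroid plexus markers 107, 36.0, 20.0 and 5.05. A list named for inhibitory neurons from outside the hippocampus reached 87.9, 326, 264 and 78.9 CPM. Meis2, one of its main genes, was found in a smaller share of members than of excitatory nuclei, as given below. This last sum therefore does not separate such neurons from excitatory RNA. The part of the 3 lists in the results was not tested, and values that touch a result stand beside it.

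The edges of the gate show what the rule admits. Of 408 inhibitory nuclei just outside it with 1 Sst UMI, 13.97% held the lineage factor Lhx6, 27.94% Sox6, 16.91% Elfn1 and 46.81% Adarb2, a gene of interneurons from the caudal ganglionic eminence. Of the 143 members just inside with 2 or 3 Sst UMIs, the shares were 22.38%, 48.95%, 21.68% and 22.38%. Of the 1513 members with more, they were 34.9%, 72.37%, 61.93% and 14.14%. Meis2, a gene of striatal and olfactory inhibitory lineages, was held by 30.15%, 31.47% and 8.394% of these 3 groups, so the members at the lower edge resembled the nuclei outside it in Meis2. On the other edges, 423 nuclei had 2 Gad UMIs and 385 members had 3, 40 nuclei had 2 Slc17a7 UMIs and 101 members had 1, 161 nuclei were left out for a Pvalb UMI and 30 for a Vip UMI. Adarb2 was held by 50.0% of the 40 and 41.58% of the 101, and Meis2 by 35.0% and 28.71%. Of the 385 members with 3 Gad UMIs, 11.95% held Adarb2 and 11.95% Meis2. Both genes thus went with an Slc17a7 UMI inside the gate. In every library the members with that UMI also had more UMIs at the median.

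Members made up 27.85% (95% Clopper-Pearson interval 25.06 to 30.76) of the inhibitory nuclei of WT, 21.61% (20.23 to 23.04) of tKO, 25.39% (22.96 to 27.94) of aKO and 26.67% (24.29 to 29.16) of nKO. Each genotype is a single library without a replicate. No difference between genotypes is therefore tested, and all intervals cover counting error only. The share was lowest in tKO, the library with the lowest median UMIs and the largest share of called doublets. With the gate applied after thinning every nucleus to 3000 UMIs, the shares were 20.7%, 18.37%, 15.29% and 18.85%, and the lowest was then aKO. Among nuclei that met the rule and also held no Meis2 and no Adarb2 UMI, they were 23.78%, 14.63%, 21.02% and 23.29%.

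The Sst level, which chose the members and is given as a description, spanned 2 to 238 UMIs per nucleus. Its median was 39 UMIs in WT, 14 in tKO, 18 in aKO and 28 in nKO, and the summed level was 4601, 2289, 2813 and 3383 CPM. The order of the CPM values followed that of the medians, with WT highest and tKO lowest. In WT 22.26% of members held 64 to 127 Sst UMIs and 5.839% held more, while in tKO these shares were 2.476% and 0 of 727, which allows up to 0.413%. At the low end 2 or 3 Sst UMIs were found in 2.92% of WT, 11.42% of tKO, 9.416% of aKO and 6.628% of nKO members. The plot of Sst per nucleus shows that the distributions overlapped over most of their range.

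**Figure D1:**
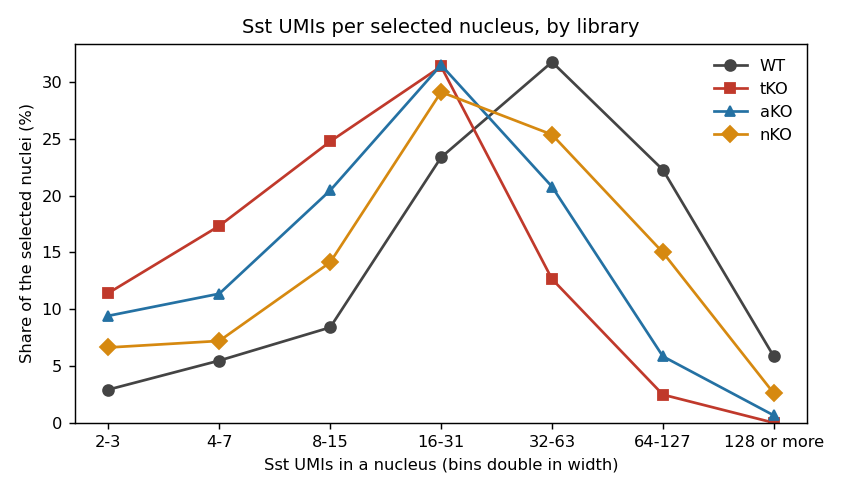
Share of members (percent, y axis, 1 line per library) by Sst UMIs per nucleus (x axis, bins that double in width). The WT members are shifted to higher bins and the tKO members to lower ones, with medians of 39 and 14 UMIs.

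Mgll, the gene targeted in the knockouts, was counted in the members of every library. Its level was 85.6 CPM in WT (260 UMIs), 80.2 in tKO (474), 78.5 in aKO (212) and 90.9 in nKO (342). The log2 ratios to WT were -0.10 (95% interval -0.32 to 0.13), -0.12 (-0.39 to 0.14) and 0.09 (-0.15 to 0.32), so all 3 intervals held 0. Since the deleted part of the gene is not given and nuclear RNA includes introns, these counts do not check the labels.

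The members carried the genes known of somatostatin neurons. Shares of nuclei with a UMI were compared after thinning to 3000 UMIs, which left 270, 713, 305 and 345 members, and beside the share in excitatory nuclei of the same library. Free RNA and expression by excitatory neurons cannot be told apart in that share. Nxph1, a synaptic ligand of neurexins, was found in 98.9%, 96.9%, 93.8% and 97.1% of members and in 1.64% to 3.40% of excitatory nuclei. Sox6, a transcription factor that positions interneurons of the medial ganglionic eminence, was found in 65.2%, 60.3%, 47.9% and 51.9%, and Reln, the extracellular protein reelin, in 61.5%, 56.0%, 59.7% and 66.4%. Both lay far above the excitatory shares of at most 1.45% and 7.05%. The label's other markers were each found in a minority of thinned members. Npy was found in 37.0%, 34.9%, 35.7% and 36.8%, Elfn1 in 31.5%, 32.7%, 29.5% and 35.9%, Lypd6 in 28.2%, 25.2%, 25.6% and 30.4% and Crhbp in 25.6%, 25.1%, 23.6% and 23.2%. Before thinning, Elfn1 was found in 61.7%, 55.0%, 53.9% and 67.2%. These 4 genes came with the name of the population and so describe it without supporting it.

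Genes that mark kinds of somatostatin neuron divided the members. Cort, the peptide cortistatin, was found in 20.0%, 13.7%, 10.8% and 15.1% of thinned members, and Pnoc, the precursor of nociceptin, in 11.1%, 8.70%, 11.1% and 14.8%, against at most 0.138% of excitatory nuclei for either. Tac1, the substance P precursor, was found in 8.52%, 7.15%, 6.56% and 6.09%. The intervals of the libraries overlapped for Tac1, and for Cort those of WT (from 15.4%) and aKO (up to 14.9%) did not. Long-range projecting somatostatin neurons are known for high Nos1 and Chodl. Nos1, neuronal nitric oxide synthase, was found in 7.41%, 8.27%, 5.57% and 2.61% of members and in 6.74%, 6.73%, 9.11% and 5.94% of the excitatory nuclei of the same libraries. The WT and tKO intervals held the excitatory share and the aKO and nKO shares were lower than it, so no share is read above that of excitatory nuclei. Of the 9 thinned members with a Chodl UMI, 8 also held Nos1, against 0.688 by independent occurrence. Chodl had a UMI in 2 of 274, 15 of 727, 2 of 308 and 3 of 347 members before thinning. After thinning it was found in 8 of 713 tKO members (1.12%), in 1 of 345 of nKO and in 0 of 270 and 0 of 305 of WT and aKO, where it was not detectable at that depth (limits of 1.11% and 0.984% of nuclei with a UMI). Chrna2, the nicotinic receptor subunit used to mark oriens-lacunosum moleculare cells, had a UMI in 1 nucleus of WT and 1 of tKO and was not detectable at this depth elsewhere. Meis2 was found in 2.22%, 10.5%, 10.2% and 2.90% and Adarb2 in 8.15%, 14.7%, 3.61% and 3.77%, below their shares in excitatory nuclei (25.1% to 30.3% and 16.2% to 21.7%).

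**Figure D2:**
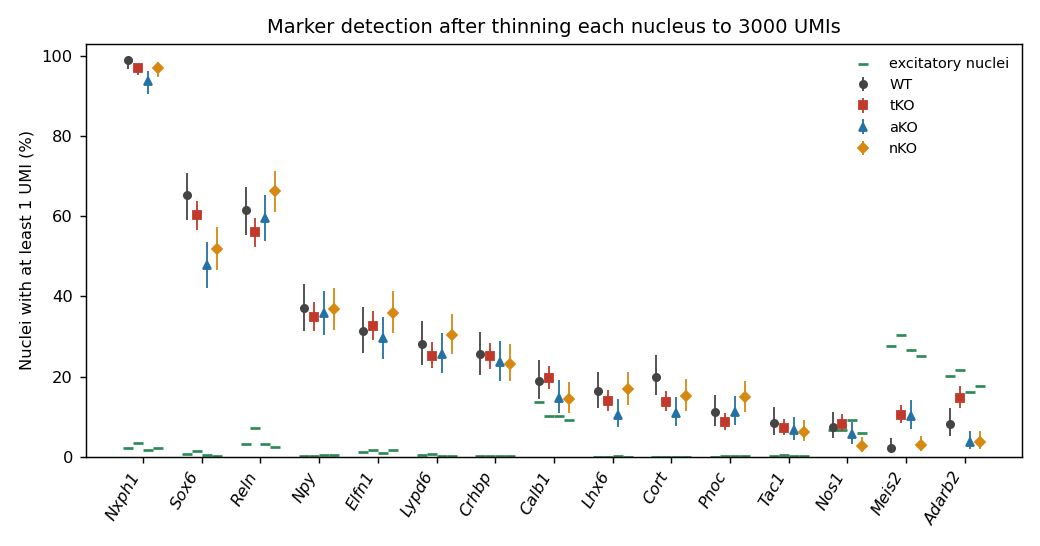
Share of members with at least 1 UMI of each gene after thinning to 3000 UMIs (y axis, percent; genes on the x axis), by library, with 95% Clopper-Pearson intervals and, as dashes, the shares in excitatory nuclei of the same library. Nxph1, Sox6 and Reln lead in all 4 libraries, Nos1 lies near the excitatory shares in WT and tKO and below them in aKO and nKO, and Meis2 and Adarb2 lie below them.

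Some of these genes occurred in the same nuclei more or less often than their separate frequencies would give. Over the 1633 thinned members, Npy and Cort shared 136 nuclei where independent occurrence would give 85.15, and Npy and Crhbp shared 207 against 143.2. Cort and Crhbp shared 93 against 58.25, so these 3 peptide-related genes overlapped pairwise, and did so in 4 of 4 libraries. Tac1 was shared with Cort by 37 nuclei against 16.94 and with Nos1 by 17 against 7.587. Reln and Elfn1 shared 397 against 318.7. In the other direction, Tac1 and Reln shared 30 nuclei against 68.55, Tac1 and Elfn1 13 against 37.36, Nos1 and Reln 27 against 61.43 and Npy and Pnoc 44 against 63.68. Meis2 shared 11 nuclei with Npy against 43.17, 6 with Crhbp against 30.0 and 3 with Cort against 16.37, but with Penk, the enkephalin precursor, it shared 16 against 3.947. Each of these pairs lay on the same side of its expectation in 4 of 4 libraries, whereas Meis2 and Pnoc, with 11 nuclei against 12.12, lay above it in 2 of 4. The pairs are a description over nuclei, which share library and residual composition, and carry no test.

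**Figure D3:**
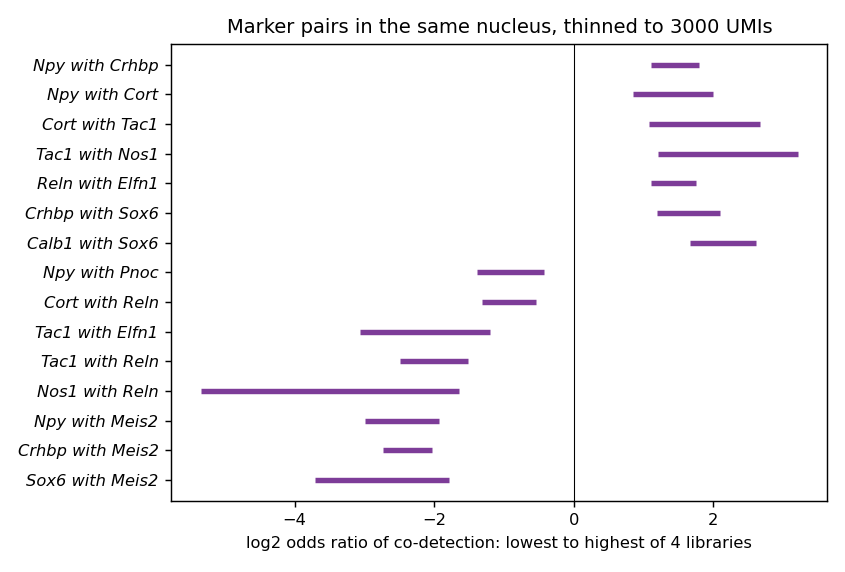
Bars span the lowest to the highest of the 4 libraries' log2 odds ratios (x axis) that a nucleus thinned to 3000 UMIs holds both genes of a pair (y axis). Npy with Crhbp and with Cort lie above 0 in all 4 libraries, while Meis2 with Npy, Crhbp and Sox6 and Tac1 with Reln and Elfn1 lie below.

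The members were compared with the other inhibitory nuclei of the same libraries, 4483 nuclei of the same gate with 0 Sst UMIs, which may hold Vip or Pvalb. UMIs were summed per library and population and tested with edgeR's quasi-likelihood test with library as a block, leaving out the 6 genes of the gate. A gene was called at a Benjamini-Hochberg adjusted p under 0.05 and at least 2-fold. The 4 libraries serve as replicates here, although they differ in genotype. With the block, p-values are set against how far the difference between the 2 populations varied from library to library. Of 14017 genes tested, 299 were higher in members (2.13%) and 520 lower (3.71%), and the median log2 fold change of all genes was 0.00.

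The gene with the highest fold was Layn, the hyaluronan receptor layilin, at 32.9, 17.4, 32.6 and 35.3 CPM in members and 0.313, 0.0606, 0.921 and 0.260 in the other inhibitory nuclei. The lowest member library thus lay far above the highest of the others (log2 fold change 6.38, SE 0.26, edgeR adjusted p = 6.78e-08). Lama4, a laminin chain of the basement membrane, stood at 45.8, 44.8, 34.8 and 63.0 CPM against 0.390 to 4.36 (4.39, SE 0.34). Trpc6, a calcium-permeable cation channel, stood at 504, 383, 474 and 491 CPM against 62.2 to 84.2 (2.62, SE 0.05, edgeR adjusted p = 1.10e-09), the smallest error among the 15 highest genes. The remaining genes of that list included Hpse (3.48), the enzyme heparanase, Lypd6b (2.94), a modulator of nicotinic receptors, Gna14 (2.81), a G-protein subunit, Pappa (2.66), a protease of insulin-like growth factor binding proteins, and Klf5 (2.56), a transcription factor. Their groups did not overlap in any of these cases. The choice favoured this, since a gene of that list had to be higher in members in every library. The share of all tested genes without overlap was not counted, here or below.

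Lower in members were genes of other interneuron classes. Adarb2 stood at 313, 535, 224 and 557 CPM in members and at 6701, 5976, 6195 and 7643 in the other nuclei (-4.10, SE 0.18, edgeR adjusted p = 1.06e-07). Few members gave its level: 35.12%, 10.02%, 61.88% and 27.0% of their Adarb2 UMIs were in 1 nucleus per library. Pde11a, a cyclic nucleotide phosphodiesterase, stood at 3.62, 26.9, 10.0 and 6.11 CPM against 201 to 305 (-4.24). Frem1, an extracellular matrix protein, and Egfr, the epidermal growth factor receptor, both had log2 fold changes of -4.14, and Lamp5, which names another interneuron class, had -3.53. Of fixed marker lists, 6 of 7 tested Lamp5-class markers, 5 of 6 of the Cck class, 4 of 7 of the Pvalb class and 2 of 6 of the Vip class were lower and 0 of each were higher. Over all genes tested, 3.71% were lower and 2.13% higher. The gate removed every nucleus with a Pvalb or Vip UMI from the members only, which bears on those last 2 lists.

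**Figure D4:**
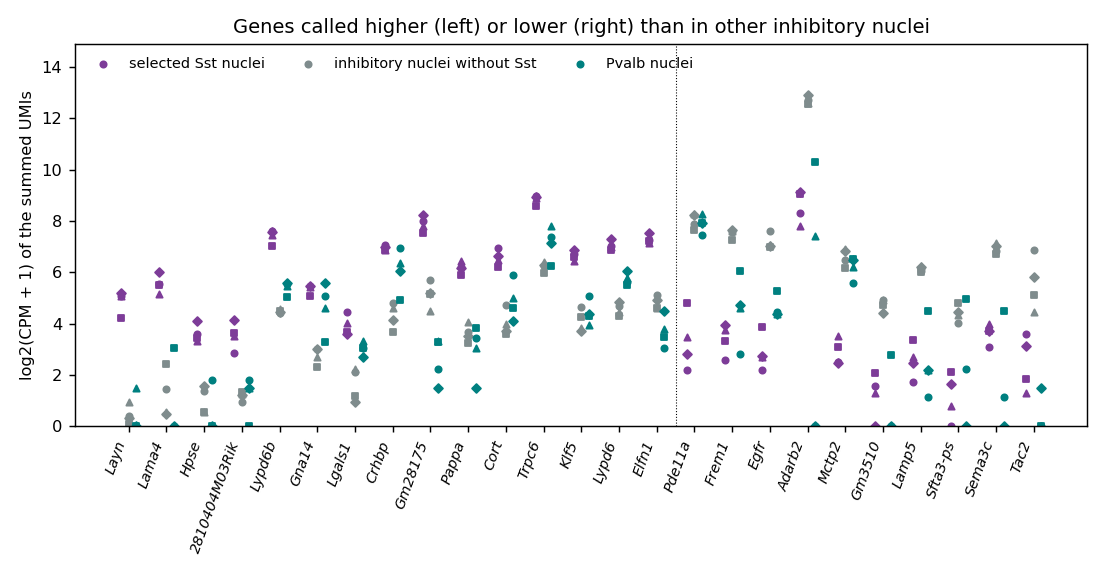
Level as log2(CPM + 1) (y axis) of the 15 genes with the highest and the 10 with the lowest log2 fold change (x axis) in members, other inhibitory nuclei and Pvalb nuclei, 1 point per library (circle WT, square tKO, triangle aKO, diamond nKO). Points of members and other inhibitory nuclei do not overlap for Layn, Lama4, Trpc6, Pde11a or Adarb2.

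Among transcription factors of interneuron development, 2 of 22 tested were higher and 5 lower, with a list median of -0.31. Over all genes tested, 2.13% were higher and 3.71% lower. Satb1, which supports maturation of somatostatin neurons, stood at 511, 396, 407 and 498 CPM against 117 to 149 (1.73, SE 0.05), and Sox6 at 615, 540, 430 and 455 against 177 to 242 (1.24, SE 0.08). Prox1, a factor of caudal eminence interneurons and granule cells, was lower (-2.88), as were Nr2e1 (-1.86), Dlx6os1 (-1.49) and Bcl11b (-1.36). Nkx2-1, which specifies the medial eminence, was also called lower but rested on 3 UMIs in members, so no fold is given. Lhx6 stood at 57.9, 43.3, 36.3 and 52.9 CPM against 22.1 to 30.5. Its groups did not overlap, and its fold change of 0.81 was under the 2-fold limit.

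The peptide genes had members in both directions. Of 25 tested genes of neuropeptides and secretory granules, 6 were higher and 4 lower, with a list median of 0.28. Npy and Crhbp, which are among the 6, were in the label. The shares over all genes tested were 2.13% higher and 3.71% lower. Npy stood at 629, 357, 423 and 411 CPM in members and at 234, 85.6, 132 and 121 in the other nuclei (1.73, SE 0.09), so the lowest member library lay above the highest of the others. Cort stood at 122, 73.2, 88.9 and 98.9 CPM against 11.2 to 25.3 (2.63, SE 0.11), and Crhbp, which binds corticotropin-releasing hormone, at 134, 116, 117 and 127 against 11.8 to 26.7 (2.74, SE 0.14). Pdyn (1.97), the dynorphin precursor, Rln1 (1.72), a relaxin, and Vgf (1.23), a granule protein, were the other 3. Cck, at 43.4 to 51.5 CPM against 213 to 368, was lower (-2.60), as were Tac2 (-3.33), Pthlh (-2.05) and Penk (-1.69). The Pdyn and Penk calls were lost without the library block.

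Receptors for peptides gave 2 of 15 higher and 4 lower, where all genes tested gave 2.13% higher and 3.71% lower. Oprk1, the dynorphin receptor, stood at 22.4, 21.3, 22.2 and 28.7 CPM against 2.97 to 8.12 (2.13, SE 0.23). For the somatostatin receptors, Sstr1 was at 2.96 to 4.28 CPM against 1.07 to 2.36 (1.08, SE 0.29) and Sstr2 at 2.63 to 3.33 against 5.52 to 8.29 (-1.15, SE 0.22). The levels of both were low. The Sstr1 call was lost under DESeq2 (adjusted p = 0.114) and without WT (edgeR adjusted p = 0.0858), aKO (0.0656) or nKO (0.107), and Sstr2 fell just under 2-fold without WT (-0.9994). Hcrtr2, an orexin receptor, was lower (-2.49), as was Npy1r, a receptor for neuropeptide Y (-1.91). Of 16 tested receptors for acetylcholine, serotonin and noradrenaline, 1 was higher (Htr1a, 1.42) and 3 lower. The Htr1a call was lost without tKO (0.87, edgeR adjusted p = 0.127), without doublets (0.0563) and under DESeq2 (0.0748). The serotonin-gated channel Htr3a, typical of caudal eminence cells, stood at 1.97 to 4.52 CPM against 13.0 to 35.6.

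Of 41 tested genes of the input synapse, 7 were higher and 1 lower, with a list median of 0.01. Over all genes tested, 2.13% were higher and 3.71% lower. Elfn1, which recruits metabotropic glutamate receptors to the terminals that contact these cells, stood at 154, 147, 141 and 184 CPM against 23.2 to 33.6 (2.52, SE 0.08). Grin3a, an NMDA receptor subunit that lowers calcium entry, stood at 705, 622, 617 and 698 CPM against 130 to 155 (2.25, SE 0.05, edgeR adjusted p = 1.94e-09). In neither gene did a library of the other nuclei reach a member library. The kainate receptor subunit Grik3 (1.63), the secreted synapse organiser Cbln4 (2.31) and the nicotinic modulators Lypd6 (2.53) and Lypd6b (2.94) were also higher, and the organiser Cbln2 was lower (-3.30). Elfn1 and Lypd6, which are among the 7 higher genes, were in the label, so their calls do not support the name.

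Among ion channels and GABA genes more of those called were lower than higher in members, as over all genes tested (3.71% lower and 2.13% higher). Of 46 channel genes, 2 were higher and 6 lower. Besides Trpc6, the higher one was Cacna2d3, an auxiliary calcium channel subunit, at 1452 to 1691 CPM against 419 to 844 (1.46, SE 0.14). Its relative Cacna2d1 was the reverse, at 65.8, 182, 98.5 and 40.1 CPM against 763 to 910 (-3.18, SE 0.25), with no overlap in either gene. Kcnq5, a subunit of the M current, was also lower (-1.68). Of 12 GABA-A receptor subunits 0 were higher and 3 lower: Gabrd, the subunit of extrasynaptic receptors (-1.68), Gabra5 (-1.36) and Gabrg3 (-1.25). Of 15 genes of GABA synthesis, transport and release 4 were lower and 0 higher, led by Cadps2 (-2.88), a priming factor of dense-core vesicles. Of 12 endocannabinoid genes tested, Cnr1 alone was called. It stood at 105, 86.3, 93.3 and 104 CPM in members and 504, 421, 423 and 515 in the other nuclei (-2.27, SE 0.05, edgeR adjusted p = 1.39e-09). Mgll stood at 78.5 to 90.9 CPM against 129 to 162 and did not reach 2-fold (-0.76, SE 0.07).

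The closest population by lineage was the 218 inhibitory nuclei with at least 2 Pvalb UMIs, 0 Sst and 0 Vip (58, 67, 51 and 42 in the libraries). Parvalbumin cells share the medial eminence origin but contact the soma and fire fast. Of 10774 genes tested by edgeR in the same way, 594 were higher in the somatostatin members (5.51%) and 352 lower (3.27%). Reln stood at 907, 712, 873 and 907 CPM in members and 26.8 to 44.9 in Pvalb nuclei (log2 fold change 4.60, SE 0.15, edgeR adjusted p = 3.07e-10). Npas1, a transcription factor, was at 28.3 to 51.8 CPM against 0 to 5.79 (4.12, SE 0.41). Neither gene was called against the other inhibitory nuclei as a whole. Ptger3, a prostaglandin E receptor, had 274 UMIs in members and 0 in Pvalb nuclei, and was at least 15.5-fold higher against a floor of 3 counts over the group. Baiap3, a factor of dense-core vesicle traffic, was at least 10.4-fold higher and Wnt7a, a secreted signalling protein, at least 9.0-fold higher by the same floor.

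Input synapse genes gave 14 of 37 higher and 1 lower against Pvalb nuclei, where all genes tested gave 5.51% higher and 3.27% lower. Elfn1 and Npy, named below, were in the label. Grin3a stood at 47.0 to 86.7 CPM in Pvalb nuclei (3.56, SE 0.13) and Elfn1 at 7.32 to 21.7 (3.66, SE 0.17), both under every member library. The metabotropic receptors Grm8 (3.04) and Grm7 (2.43) were also higher. Of 20 peptide genes 9 were higher, among them Npy (2.80), Pnoc (1.59), Cort (1.55) and Resp18 (1.65), and Pthlh was lower (-3.10). Among 44 channel genes 12 were higher and 7 lower. The potassium channel genes Kcnc1 and Kcna1, known from fast-firing cells, were lower in the somatostatin members. Kcnc1 stood at 182, 171, 187 and 191 CPM against 489 to 661 (-1.67, SE 0.09) and Kcna1 at 48.6 to 55.9 against 145 to 202 (-1.66, SE 0.12). Neither overlapped between populations. Kcnc2, of the same channel family, stood at 3015 to 3477 CPM against 3359 to 3830 and was not called (-0.13, SE 0.07).

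The gene farthest below its Pvalb level was Syt2, the calcium sensor of fast release, at 5.27, 8.80, 2.96 and 9.57 CPM against 143 to 280 (-4.73, SE 0.26, edgeR adjusted p = 1.24e-08). Next came Adamtsl5 (-4.49), a matrix protein, Mybpc1 (-4.43) and Pde11a (-4.34). Of 12 GABA-A subunits 2 were higher and 3 lower, beside 5.51% and 3.27% of all genes tested. Gabrd stood at 12.8 to 17.2 CPM against 99.3 to 107 (-2.81, SE 0.15) and Gabrg3 at 872 to 921 against 2285 to 2854 (-1.51, SE 0.08), both with no overlap. Gabra2 was higher (1.76, SE 0.16), though its WT members, at 147 CPM, lay below the tKO Pvalb nuclei at 171. Cnr1 was higher against Pvalb nuclei (1.60, SE 0.42) with 10.98, 97.0, 16.3 and 5.42 CPM there. This call was lost without WT (1.19, edgeR adjusted p = 0.0678), without nKO (1.27, 0.104) and in male nuclei (1.26, 0.117). Without tKO the fold change was 3.20 (edgeR adjusted p = 7.44e-10). The tKO Pvalb nuclei, of which 34.33% were called doublets, also stood apart in Adarb2, at 1265 CPM against at most 168 in the other 3.

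Between libraries, the members' log2 ratio to WT was taken for 10368 genes with at least 100 UMIs over all members. In tKO 122 genes were past 2-fold higher (1.18%) and 89 lower (0.858%), in aKO 99 (0.955%) and 135 (1.3%), and in nKO 44 (0.424%) and 133 (1.28%). These counts have no test. Without doublets the tKO counts were 48 higher and 90 lower, and without members holding Meis2 or Adarb2 they were 47 and 62, so the larger side turned. With TMM scaling the higher and lower genes numbered 149 and 61 in tKO, 111 and 105 in aKO and 55 and 101 in nKO. In male nuclei they numbered 165 and 79 in tKO, 146 and 156 in aKO and 113 and 116 in nKO. The distance from the 10th to the 90th percentile of the log2 ratios was 0.78, 0.85 and 0.79 for tKO, aKO and nKO against WT. Between pairs of knockout libraries it was 0.76 (aKO to tKO), 0.70 (nKO to tKO) and 0.74 (nKO to aKO). These distances were smaller than those to WT, but the shares of genes past 2-fold did not follow that order. They were 2.035%, 2.257% and 1.707% for tKO, aKO and nKO against WT, and 1.833%, 1.929% and 1.64% for the same 3 pairs of knockout libraries. The limit of 100 UMIs was on the sum over all members, of which tKO gave the most UMIs. A gene high in tKO alone therefore passed it more easily, and no closeness of libraries is read from these counts. The 3 comparisons with WT share the WT library, so a level particular to that library appears in all of them.

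Endocannabinoid genes stayed within 2-fold. Of 12 tested, 0 were past 2-fold in any library, beside 2.035%, 2.257% and 1.707% of all genes. Their medians were -0.01, -0.07 and -0.04, beside -0.07, -0.06 and -0.04 for all genes. Cnr1 in the members gave -0.28 (-0.48 to -0.07), -0.16 (-0.41 to 0.08) and -0.00 (-0.22 to 0.21), so only the tKO interval lay below 0. Other settings changed which intervals did. The tKO ratio was -0.64 (-0.88 to -0.39) without doublets, -0.0043 (-0.30 to 0.32) in male nuclei and -0.20 (-0.41 to 0.0042) with TMM scaling. The aKO ratio was -0.74 (-1.09 to -0.41) without members holding Meis2 or Adarb2 and -0.34 (-0.59 to -0.086) with at least 3 Sst UMIs, and the nKO ratio was -0.51 (-0.75 to -0.27) with at least 3 Sst UMIs.

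Several peptide genes were lower than in WT in all 3 knockout libraries, within 2-fold. The list medians were -0.22, -0.18 and -0.08 in members and -0.44, -0.44 and -0.24 in the other inhibitory nuclei, so the medians lay farther below 0 outside the members. The difference between the populations was not tested. Of 20 tested genes of the list, 10 in tKO, 8 in aKO and 8 in nKO had intervals below 0, and 3, 2 and 3 above. Over all 10368 genes the intervals lay below 0 for 1521, 1332 and 1267 and above for 984, 784 and 757. Npy, at the CPM values given above, had log2 ratios of -0.82 (-0.91 to -0.73), -0.57 (-0.68 to -0.46) and -0.61 (-0.71 to -0.51), and in the other inhibitory nuclei -1.45, -0.83 and -0.95. Scg2, the granule protein secretogranin II, stood at 218, 135, 140 and 139 CPM, with ratios of -0.69, -0.64 and -0.65. Cort gave -0.74, -0.46 and -0.31, and Resp18, a protein of the regulated secretory pathway, -0.64, -0.22 and -0.37. For all 4 genes the WT library was highest and all 3 intervals lay below 0. In male members alone Cort in aKO was level with WT (0.039). Crhbp, at 134, 116, 117 and 127 CPM, and Vgf, at 87.6, 73.6, 83.3 and 83.4, had intervals holding 0 in aKO and nKO, and Crhbp in tKO was at 0.10 without doublets. None of the list's genes was past 2-fold higher in any library, and 0, 2 and 1 were past 2-fold lower, beside 0.858%, 1.3% and 1.28% of all genes. Calca and Nppc are peptide genes outside that list. Calca, the precursor of calcitonin gene-related peptide, stood at 22.1, 6.77, 8.52 and 5.31 CPM (-1.69, -1.33 and -2.00), with 32.8% of its WT UMIs in 1 nucleus. Nppc, a natriuretic peptide, was lower in tKO alone, at 3.72 CPM against 16.8, 11.9 and 15.4.

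Several immediate early genes, which neurons transcribe within minutes of activity, were at a higher level in tKO and nKO members than in WT and aKO. Of 11 tested, 4 were past 2-fold higher in tKO, 0 in aKO and 5 in nKO, beside 1.18%, 0.955% and 0.424% of all genes. The list medians were 0.47, -0.19 and 0.22. Fos stood at 5.27, 10.8, 3.70 and 14.4 CPM (0.97, interval 0.23 to 1.93, -0.46, -1.81 to 0.72, and 1.39, 0.62 to 2.35). Egr1, a zinc-finger factor, stood at 5.60, 18.3, 4.81 and 14.4 CPM, and Npas4, which adjusts inhibition to activity, at 4.61, 12.7, 7.04 and 14.6. The nuclear receptors Nr4a2 and Nr4a3 stood at 3.95, 10.5, 4.44 and 8.77 and at 9.88, 22.0, 8.89 and 27.6 CPM, and 42.4% of the nKO Nr4a2 UMIs were in 1 nucleus. All 5 had both WT and aKO below both tKO and nKO. With few UMIs the sizes moved with the setting: after thinning, 6 of the 10 tKO and nKO ratios of these 5 genes had intervals that held 0. In tKO these were Fos at 0.34 (-0.94 to 2.30) and Nr4a3 at 0.71 (-0.12 to 1.83), and in nKO Fos at 1.15 (-0.19 to 3.13), Egr1 at 1.23 (-0.40 to 4.00), Nr4a2 at 1.06 (-0.94 to 4.76) and Nr4a3 at 0.65 (-0.34 to 1.83). Npas4 in both libraries and Egr1 and Nr4a2 in tKO stayed above 0. Without doublets Nr4a2 in tKO was 0.84 (-0.11 to 2.01). Among members without Meis2 or Adarb2 Nr4a2 in nKO was 0.25 (-1.004 to 1.70), and in male members Egr1 in nKO was 0.59 (-0.49 to 1.99) and Fos in nKO 1.13 (-0.15 to 3.10). These intervals held 0 too. In male members Npas4 in aKO was 1.93, against only 2 UMIs in WT. The list was not uniform: Jun stood at 14.5, 11.8, 4.07 and 5.58 CPM and was past 2-fold lower in aKO and nKO, and Homer1, at 158, 182, 144 and 181 CPM, stayed within 0.20 of WT on the log2 scale in tKO and nKO. Arc, under the 100-UMI limit, had 3, 31, 7 and 18 UMIs.

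The share of nuclei with these transcripts is given as a description. After thinning, a UMI of any of 6 genes (Fos, Egr1, Npas4, Arc, Nr4a2 and Nr4a3, chosen after their values were seen) was found in 9.26% of WT members (6.08 to 13.4), 17.7% of tKO (14.9 to 20.7), 8.20% of aKO (5.38 to 11.9) and 17.7% of nKO (13.8 to 22.1). Since the genes were chosen for this order, the shares restate it. Among male members the shares were 5.36%, 17.8%, 8.46% (4.30 to 14.6) and 17.1% (11.7 to 23.6). Among female members, of which tKO had 0, they were 13.9% in WT (8.56 to 20.8), 7.14% in aKO and 18.7% in nKO (12.8 to 25.8). Within a sex the nKO interval thus overlapped that of aKO in males and that of WT in females. Summed over the 6 genes the level was 20.6 CPM in male and 39.1 in female members of WT, 27.3 and 25.3 in aKO and 83.4 and 85.7 in nKO, so the sexes lay apart in WT and close together in aKO and nKO. In the other inhibitory nuclei Fos had ratios of -0.33, -2.38 and -0.16 and Nr4a3 of 0.12, -1.97 and 0.36, with list medians of 0.12, -0.59 and -0.16. The difference between the populations was not tested.

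A pair of GABA-A receptor subunits, Gabrg1 and Gabra2, lay higher in all 3 knockout libraries than in WT. Gabrg1, a gamma subunit, stood at 10.5 CPM in WT and at 66.0 in tKO, 61.5 in aKO and 48.9 in nKO. Its log2 ratios were 2.61 (2.12 to 3.21), 2.51 (1.99 to 3.14) and 2.18 (1.67 to 2.80), and a UMI was found in 7.66%, 28.6%, 24.7% and 23.6% of members. All 3 knockout libraries thus lay above WT. The strain and breeding of the 4 lines are not known here, so the knockout and any other difference between the lines cannot be told apart. In the other inhibitory nuclei the level was 20.6, 33.1, 43.7 and 37.9 CPM, with ratios of 0.67 (0.40 to 0.97), 1.08 (0.78 to 1.39) and 0.87 (0.58 to 1.19), all smaller than in members. Gabrg1 was named among genes whose mean CPM in members was at least that in the other nuclei. It met this through the 3 knockout libraries, since in WT the other nuclei were higher. Larger ratios in members were thus favoured by the choice, and the difference between the populations was not tested. Gabra2, the alpha 2 subunit, stood at 147, 391, 321 and 250 CPM in members (1.41, 1.13 and 0.76) and at 232, 420, 367 and 334 in the other nuclei (0.86, 0.66 and 0.52). The order of the 4 libraries was the same in both populations.

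Both genes lie on chromosome 5 in 1 cluster of subunit genes. By GENCODE M21 on GRCm38, Gabrg1 spans chr5:70751047-70842617, Gabra2 chr5:70957597-71095849, Gabra4 chr5:71569749-71658308 and Gabrb1 chr5:71658113-72149037. Gabra4 gave 0.69, 0.54 and -0.00, and Gabrb1 stood at 551, 711, 637 and 488 CPM. Hence Gabrg1 and Gabra2 were higher in all 3 knockout libraries, and Gabra4 and Gabrb1 were higher in tKO and aKO by less. The 90th percentile of the log2 ratios of all genes was 0.31 in tKO and 0.33 in aKO. A pattern along the cluster was not tested. Over 12 tested GABA-A subunits the medians were 0.27, 0.13 and 0.02, and 2, 2 and 1 were past 2-fold higher. Of all genes 1.18%, 0.955% and 0.424% were.

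**Figure D5:**
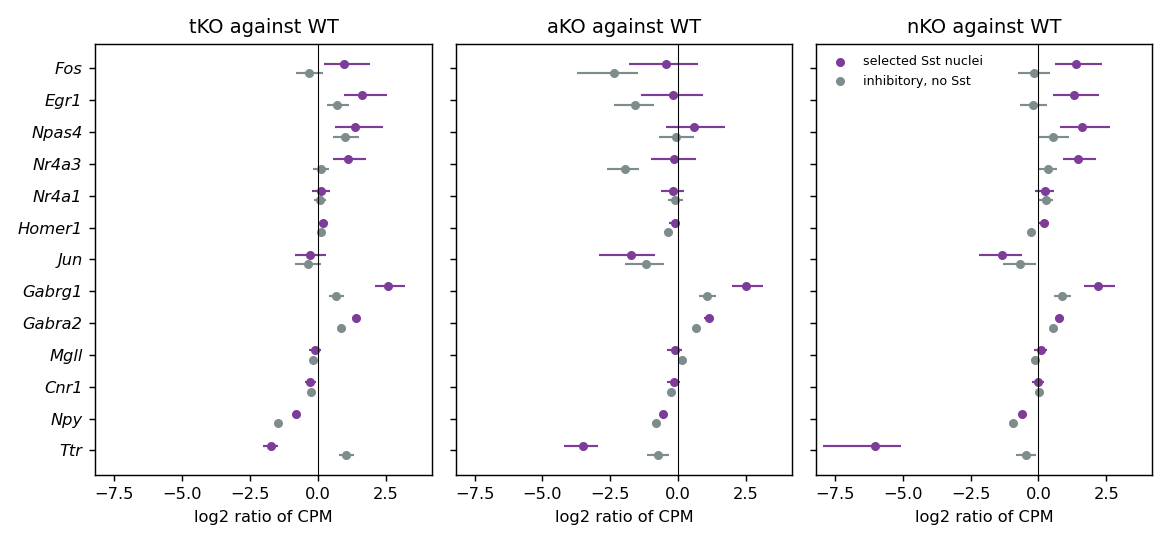
Log2 ratio to WT (x axis) of 13 genes (y axis) in members and in other inhibitory nuclei, with 1 panel each for tKO, aKO and nKO and 95% intervals that cover counting error only. In members Gabrg1 lies above 2 in all 3 libraries, and the early genes Fos, Egr1, Npas4 and Nr4a3 lie above 0 in tKO and nKO with aKO intervals that hold 0.

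A few other genes divided the libraries. With WT on one side and the other 3 on the other, 8 of the 10368 genes were past 2-fold higher in the 3 and 6 were past 2-fold lower. Among genes at least as high in members as in the other inhibitory nuclei, those named after Gabrg1 lay just under 2-fold at their smallest ratio to WT. They were Plxna3, a semaphorin co-receptor on the X chromosome, at 4.94, 9.81, 10.7 and 12.7 CPM (0.92), and Ftl1-ps1, at 12.8, 25.4, 31.5 and 29.5 (0.96). Ftl1-ps1 is a pseudogene whose reads may belong to a near-identical copy. The lower ones were led by Ttr, at 105, 31.3, 8.89 and 1.33 CPM. Ttr is the choroid plexus gene transthyretin and makes up most of the summed choroid plexus level given above in WT and tKO, but not in aKO and nKO. In the members' WT library 74.2% of its UMIs were in 1 nucleus and in tKO 47.6%, so these levels rest largely on single nuclei. In the other inhibitory nuclei its log2 ratios to WT were 1.05, -0.74 and -0.46, so tKO lay above WT there. Of the 4 other markers on the choroid plexus list Folr1 had 0 UMIs in every library and Aqp1 at most 1. Also lower were Calca and the gene 1700037C18Rik, at 16.5, 6.94, 7.41 and 5.05 CPM.

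With tKO and nKO set against WT and aKO, 3 of the 10368 genes were past 2-fold higher across the gap and 1 was past 2-fold lower. Other divisions of the libraries into pairs were not counted. Gm17167 had 0, 220, 0 and 59 UMIs in members. It was at least 37.7-fold higher in tKO and at least 15.9-fold higher in nKO than in WT, against a floor of 3 counts per library, and a UMI was found in 24.5% of tKO and 14.4% of nKO members. The other inhibitory nuclei gave the same pattern, at 0, 37.5, 0.614 and 14.2 CPM. Egr1 was also on the higher side, and Dynlt1b, a dynein light chain, was the lower gene, at 11.8, 3.38, 10.7 and 4.25 CPM.

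Single libraries had differences of their own. In tKO, Slc24a5, a cation exchanger, stood at 8.80 CPM against 30.0, 28.1 and 41.7 and had a ratio to WT of -1.76 (-2.29 to -1.26). Tshz2, a zinc-finger factor, stood at 27.3, 113, 63.3 and 39.6 CPM and Foxp2, a factor of striatal and other inhibitory neurons, at 12.5, 57.2, 7.04 and 3.99. Meis2 stood at 34.2, 127, 151 and 28.7 CPM, high in tKO and aKO. A Meis2 UMI was found in 15.0% of tKO members, and without doublets in 6.59%, beside 4.55% of WT members. In aKO it was found in 36 of 308 members and, without doublets, in 33 of 300, so there the share hardly moved. The tKO share of Adarb2 was 22.3% with and 13.0% without doublets. Tshz2 in tKO had a ratio to WT of 2.04, and of 1.47 without doublets. Meis2, Foxp2 and Tshz2 make up most of the summed level given above for the list named for inhibitory neurons from outside the hippocampus. Since Meis2 was found in a larger share of excitatory nuclei than of members, that level is not particular to such neurons. Of that list's other genes Ebf1 stood at 0.658, 10.2, 11.5 and 0.266 CPM. Its 31 aKO UMIs lay in 3 nuclei, with 51.6% in 1. Zic1 had 20, 50, 47 and 14 UMIs and Zic4 had 15, 47, 31 and 8. Otx2 had 5, 1, 1 and 0 UMIs and Six3 had 0, 8, 1 and 1. Nkx2-1 and Pax5 had at most 2 UMIs in any library. The serotonin receptor Htr2c stood at 64.2, 153, 104 and 24.2 CPM and Nos1 at 40.8, 53.5, 23.7 and 17.3, so in both nKO was lowest. Prr5l had 18, 136, 0 and 14 UMIs and Mal, a myelin protein, 37, 92, 0 and 6, and both were highest in tKO and lowest in aKO. In 1 nucleus lay 64.9% of the WT Mal UMIs, 38.9% of the WT Prr5l UMIs and 85.7% of the nKO Prr5l UMIs. Without doublets the tKO ratios to WT were 0.63 for Prr5l and -0.37 for Mal, both with intervals that held 0. The oligodendrocyte markers in sum were also highest in tKO and lowest in aKO, among them Mobp at 4.28, 12.2, 0.370 and 2.66 CPM, with Mag and Opalin at 0 UMIs in aKO. Their part in the levels of Prr5l and Mal was not tested. Npsr1, the neuropeptide S receptor, gave 1.95 in aKO with 46.8% of its UMIs there in 1 nucleus. In nKO, Gla, a lysosomal galactosidase, stood at 13.0 CPM against 3.95, 6.60 and 7.41, and Bcl6, a transcriptional repressor, at 5.05 against 19.4, 15.2 and 10.4.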

How the data were processed

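UMI counts per gene and barcode were used as the authors deposited them, as whole numbers with no normalization. Per the submitters' processing notes, mm10 and Cell Ranger ARC 2.0.0 were used. The sources used here do not say whether counting used strand. Analysis was limited to the 20211 symbols listed in all 4 libraries, of which 19830 (98.11%) were found in GENCODE M21.

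The members and gene lists were chosen with earlier results of these data known. UMIs of members, of other inhibitory nuclei and of Pvalb nuclei were summed per library and tested across all genes with edgeR 4.0.16 (R 4.3.3, TMM, low-count filter, library block). The test was also run on simulated data, whose outcome is not given here. Ratios to WT are log2 CPM ratios with a pseudocount of 1 count, genes with at least 100 UMIs and exact conditional binomial 95% intervals. Named genes were the 15 highest and 10 lowest called against other inhibitory nuclei, the 8 and 8 against Pvalb nuclei (mean CPM at least 10), the 4 and 4 per library against WT, genes that divided the libraries, and genes of the lists. Doublets (Scrublet in scanpy 1.11.5, 0.8% per 1000 barcodes) were kept in the main results. Alternatives were DESeq2 1.42.0, RLE scaling, no filter, no block, each library left out, no doublets, thinning to 3000 UMIs, male nuclei only, other gates and, chosen after seeing the data, members with no Meis2 or Adarb2 UMI. A few genes are not reported here.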

Additional observations from a re-analysis of the deposited data

How the results depend on the processing

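Against other inhibitory nuclei 819 genes were called, and 946 against Pvalb nuclei. Without a replicate block for the library these were 696 and 882, under DESeq2 705 and 828, with RLE scaling 818 and 945, with no low-count filter 1022 and 1334, without doublets 854 and 1031, after thinning 580 and 594 and in male nuclei 584 and 715. With each library left out in turn they ranged from 725 to 830 (higher 268 to 327, lower 457 to 539) and from 858 to 1075 (higher 524 to 687, lower 334 to 388). The higher genes numbered 190 after thinning against other nuclei, and against Pvalb nuclei 350 after thinning and 932 with no filter. List genes called against other nuclei numbered 52, and 49 to 55 with a library left out. The counts past 2-fold against WT moved most. With a limit of 20 UMIs they were 987 in tKO (475 higher, 512 lower), 1054 in aKO (440, 614) and 888 in nKO (303, 585). After thinning they were 108 in tKO (60, 48), 144 in aKO (59, 85) and 108 in nKO (77 lower). Without members holding Meis2 or Adarb2 they were 109 in tKO (47 higher), 137 in aKO (37 higher) and 97 in nKO (29, 68). Without doublets they were 138 in tKO (48 higher), and 87 were lower in nKO. In male nuclei 113 were higher and 116 lower in nKO. With at least 1 Sst UMI the members' shares of inhibitory nuclei were 30.79%, 27.97%, 30.26% and 34.82%; the shares after thinning (20.7%, 18.37%, 15.29%, 18.85%) and without Meis2 or Adarb2 (23.78%, 14.63%, 21.02%, 23.29%) also moved. Log2 ratios to WT that changed sign included, in male nuclei, Prr5l (0.19), Mal (0.19) and Cort (0.039) in aKO, Mal (2.20), Trf (2.30) and Scg3 (0.069) in nKO and Pcsk1 (-0.016) in tKO. Without doublets they included Trf (-0.54), Crhbp (0.10), Penk (-0.25) and Kit (-0.95) in tKO and Mal (0.12) and Trf (0.64) in nKO. After thinning they included Homer1 (-0.16) and Vgf (0.014) in tKO, Chga (0.026) in aKO and Homer1 (-0.21) and Lypd6 (-0.053) in nKO. Without Meis2 or Adarb2 they included Penk (-0.75) in tKO and Homer1 (-0.15) in nKO. Some ratios counted with the others below also changed sign. In male nuclei these included Fos (0.19), Nr4a3 (0.19) and Nr4a2 (-0.072) in aKO. Cnr1 in nKO did so with TMM scaling (0.060), and Mal in tKO without doublets. The cause of these changes was not tested. Of the other gene ratios 1604 moved by less than their counting error, and the rest by more. Gabrg1 stayed between 2.54 and 3.10 in tKO, 2.47 and 2.85 in aKO and 2.12 and 2.84 in nKO. Depth limits Fos, Egr1, Npas4, Arc, Nr4a2 and Nr4a3, which had 3 to 130 UMIs per library.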
